A study of Rattus norvegicus with 6 samples.

Results

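The basic helix-loop-helix (bHLH) transcription factors described here are the rows of the deposited expression table that its transcription factor family column marks as bHLH, without Hand1, Hand2, Hey1, Hey2, Heyl, Hes1, Srebf1, Srebf2, Arntl, Clock, Tfeb and Tfe3. The mark is carried by 101 of 34510 rows, and 89 remained after these 12 were left out. Hif1a and Epas1 were also to be left out but carry no bHLH mark. RNA with poly(A) tails was sequenced from cultured neonatal rat ventricular cardiomyocytes, which are heart muscle cells isolated from newborn rats. The Trim28 group held 3 libraries, and the design text states infection with an adenovirus that expresses TRIM28, a corepressor recruited to chromatin by zinc finger proteins. The Bgal group held 3 libraries, for which the labels give a name but no virus, dose or time. No age, strain or batch is given, and nothing says that the libraries came from separate cultures, so each p-value reflects the spread among these 6 libraries alone, and that spread may be technical.

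A bHLH protein pairs with another through its helix-loop-helix and touches DNA with the basic stretch before it, at a short site called the E-box, CANNTG. Broadly expressed E proteins pair with tissue-restricted partners to switch on lineage genes, and ID proteins, which lack the basic stretch, bind E proteins and hold them off DNA. Other branches pair among themselves: MYC and the MXD repressors compete for MAX, MondoA and ChREBP pair with MLX, and the PAS branch senses ligands, oxygen and time of day. In the heart, mesenchymal members such as TCF21 mark the fibroblast lineage, while ID genes are known targets of bone morphogenetic protein (BMP) signals.

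Promoter sequences from RefSeq (build GRCr8) matched 72 of the 89 members by symbol. Shown first are 4 that carry an E-box and belong to members described below. Each is the 250 bases before the gene's start, on the gene's strand, with every CANNTG in capitals. Atoh8 (chr4:105850380-105850629, minus strand) and Id1 (chr3:161671314-161671563, plus strand) stand for members that rose, and Max (chr6:101395291-101395540, minus strand) and Mlx (chr10:86519636-86519885, plus strand) for members that fell.
Atoh8: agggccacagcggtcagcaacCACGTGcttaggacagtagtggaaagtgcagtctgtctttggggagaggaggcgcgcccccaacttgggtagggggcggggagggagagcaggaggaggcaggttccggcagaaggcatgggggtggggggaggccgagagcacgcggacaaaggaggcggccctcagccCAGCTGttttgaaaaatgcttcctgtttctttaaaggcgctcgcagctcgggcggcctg
Id1: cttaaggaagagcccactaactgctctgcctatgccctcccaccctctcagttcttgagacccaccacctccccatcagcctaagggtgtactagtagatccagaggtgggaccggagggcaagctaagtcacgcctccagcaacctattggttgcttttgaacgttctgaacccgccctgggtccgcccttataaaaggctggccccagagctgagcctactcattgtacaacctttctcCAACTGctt
Max: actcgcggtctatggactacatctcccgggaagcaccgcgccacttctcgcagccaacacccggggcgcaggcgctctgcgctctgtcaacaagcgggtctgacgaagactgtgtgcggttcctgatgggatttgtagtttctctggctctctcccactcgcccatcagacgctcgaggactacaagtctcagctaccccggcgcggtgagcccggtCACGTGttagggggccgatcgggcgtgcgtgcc
Mlx: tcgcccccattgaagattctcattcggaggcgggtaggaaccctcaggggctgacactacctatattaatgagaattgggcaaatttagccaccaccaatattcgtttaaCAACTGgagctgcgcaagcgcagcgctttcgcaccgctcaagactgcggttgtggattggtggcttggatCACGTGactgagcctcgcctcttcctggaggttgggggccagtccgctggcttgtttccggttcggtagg

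The palindrome CACGTG, the E-box form bound by MYC, MAX, MLX and USF proteins, stood in the promoters of Atoh8, Max and Mlx, and Id1 had CAACTG alone. Among the members with a sequence, CACGTG was found in 10 of 72 promoters, against 5.86% of all 24206 promoters with a unique symbol. Any CANNTG, of which CACGTG is 1 form, was found in 47 of 72 member promoters, against 65.0% of all. Both motifs read as the same pattern on either strand, so 1 search covers both strands. Of the 10 promoters of members that rose, 5 held CANNTG, and of the 3 of members that fell, 2 did. A match is a description of these letters and was not tested as a binding site.

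Of the 89 members, 40 reached the level required for testing, 0.5 FPKM in at least 3 libraries. FPKM is the number of fragments scaled by gene length and library total. The other 49 were not tested, and 13 of these were listed at 0 in all 6 libraries. By class the untested members were 24 proneural and tissue-specific, 9 mesenchyme, 4 skeletal muscle, 4 Orange-domain, 3 blood and endothelial, 2 MYC network, 2 PAS and 1 MITF-related, with no group mean above 0.713 FPKM. In limma on log2(FPKM + 1), with Benjamini-Hochberg adjustment over 14808 tested genes and a threshold of 0.05, 12 members rose and 5 fell. The 17 members called are 42.5% of the 40 tested, beside 41.2% of all tested genes. Rises made up 20.1% of all tested genes and falls 21.1%. The share called in the family is therefore close to that of all genes. Rises outnumbered falls among the members, while the 2971 rises and 3126 falls over all genes were nearly even. The median log2 difference was 0.02 over the members and -0.02 over all tested genes. Without Trim28 replicate 3, 11 members rose and 3 fell. The count of members that fell was also 3 without Bgal replicate 1, 2 or 3 and without Trim28 replicate 1, and 3 with no filter on low values.

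**Figure D1:**
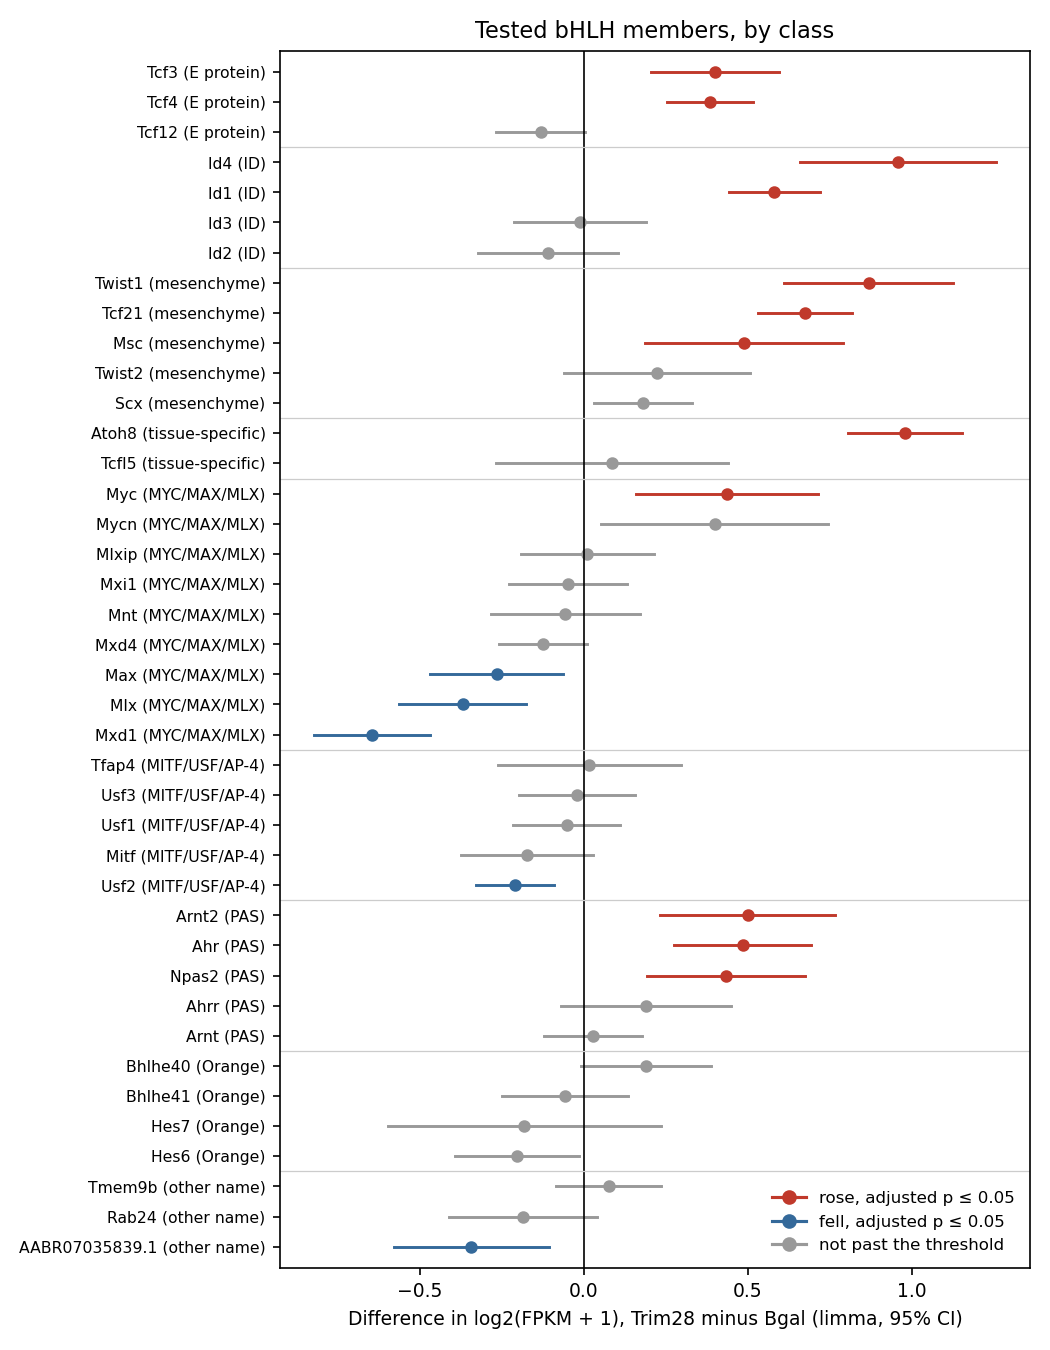
Difference in log2(FPKM + 1), Trim28 minus Bgal, for the 40 tested bHLH members, with the limma 95% confidence interval as a line. Red marks the 12 that rose, blue the 5 that fell and grey the 23 not past an adjusted p of 0.05; Atoh8 and Id4 lie farthest right and Mxd1 farthest left.

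The level of the overexpressed gene differed among the Trim28 libraries. Trim28 stood at 2923, 2890 and 980.03 FPKM in Trim28 libraries 1 to 3, against 81.6, 87.8 and 77.6 FPKM in the Bgal libraries. Reads assigned to genes ranged from 26146166 to 28298731 in the Trim28 libraries and from 28574951 to 34593292 in the Bgal libraries, and 1 read on a gene of 1 kilobase was worth 0.0281 to 0.0381 FPKM. The labelled cell type was checked by 9 cardiomyocyte genes, whose summed level was 10989 to 11128 FPKM in the Trim28 libraries and 12263 to 13462 FPKM in the Bgal libraries. Markers of other cells were also present, and their counts stand beside 20.1% of all tested genes that rose and 21.1% that fell. Summed over 11 fibroblast genes the level was 1276 to 1344 FPKM in Trim28 and 783 to 839 FPKM in Bgal libraries, and 8 of 11 rose. Over 8 mural cell genes it was 1620 to 1718 FPKM in Trim28 and 761 to 1017 FPKM in Bgal libraries. Most of that sum was Acta2, which averaged 1342 FPKM in Trim28 and 692 FPKM in Bgal libraries. Of the 8 genes, Rgs5 did not pass and 7 rose. One of the 7, Kcnj8, reached the level for testing through the Trim28 libraries alone, which favours a rise. With a filter of 1 FPKM the count was 6 of 7. The 9 leukocyte genes found summed to 64.3 to 65.96 FPKM in Trim28 and 27.2 to 27.5 FPKM in Bgal libraries. The 6 tested rose, but the Trim28 values carried Adgre1 past the filter by themselves and Ptprc for the most part, and with a filter of 1 FPKM 4 were tested, which rose. The 7 endothelial genes found summed to 89.8 to 92.8 FPKM in Trim28 and 39.4 to 47.5 FPKM in Bgal libraries. Most of that sum was Eng, which averaged 82.3 FPKM in Trim28 and 32.95 FPKM in Bgal libraries. Of the 3 endothelial genes tested, Eng and Tek rose and Kdr fell. Of the cardiomyocyte genes 3 rose and 4 fell, and of 6 proliferation genes 5 fell, with sums of 47.7 to 50.6 FPKM in Trim28 and 60.1 to 63.6 FPKM in Bgal libraries. Of 8 Schwann cell and neuron genes, 3 were tested and 1 rose. No marker of these lists was at 0 in every library. Fewer cells of a type and less RNA per cell cannot be told apart in these bulk samples.

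Among the ID inhibitors, Id1 and Id4 rose, while Id2 and Id3 did not pass the test. Id1 had 52.3, 50.9 and 50.1 FPKM in Trim28 libraries 1 to 3, against 33.7, 36.4 and 31.5 FPKM in Bgal libraries 1 to 3. All 3 Trim28 values lie above all 3 Bgal values, 1.51-fold by the means (log2 difference 0.58, SE 0.06, limma adjusted p = 0.000407). Id4 had 15.4, 11.4 and 15.5 FPKM in the Trim28 libraries, against 7.23, 5.89 and 7.09 FPKM in the Bgal libraries, again with no overlap. Its mean was 2.09-fold that of the Bgal group (log2 difference 0.96, SE 0.13, limma adjusted p = 0.00115), and Trim28 replicate 2 was the lowest of its group. The deposited table places Id1 (ENSRNOG00000021750) at chromosome 3, 148215540 to 148216718, and Id4 (ENSRNOG00000016099) at chromosome 17, 16692557 to 16695126, on a build not given in the sources used here.

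Id3, the most abundant ID gene, had 58.1, 58.1 and 55.7 FPKM in the Trim28 libraries, against 55.1, 66.6 and 52.4 FPKM in the Bgal libraries. The groups overlap, and the interval of the log2 difference ran from -0.21 to 0.19 (limma adjusted p = 0.925). Id2 had 22.1, 18.4 and 18.4 FPKM in the Trim28 libraries, against 20.02, 20.3 and 23.4 FPKM in the Bgal libraries, also overlapping (interval -0.32 to 0.10, limma adjusted p = 0.375). The summed level of the 4 ID genes was 148, 139 and 139.6 FPKM in the Trim28 libraries and 116, 129 and 114 FPKM in the Bgal libraries.

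The E proteins, the partners that ID proteins sequester, split in the same way. Tcf3, which encodes E12 and E47, had 14.6, 13.1 and 12.6 FPKM in the Trim28 libraries, against 9.76, 10.9 and 9.17 FPKM in the Bgal libraries. The groups did not overlap and Tcf3 rose 1.35-fold (log2 difference 0.40, SE 0.08, limma adjusted p = 0.00783). Tcf4, the E2-2 gene, had 13.8, 13.2 and 13.99 FPKM in the Trim28 libraries, against 10.5, 10.1 and 10.1 FPKM in the Bgal libraries, and rose 1.34-fold (limma adjusted p = 0.00164). Tcf12, the HEB gene and the most abundant E protein gene, had 16.02, 15.6 and 16.1 FPKM in the Trim28 libraries, against 17.03, 18.7 and 16.9 FPKM in the Bgal libraries, lower in every Trim28 library but not past the test (log2 difference -0.13, interval -0.27 to 0.0034, limma adjusted p = 0.107).

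**Figure D2:**
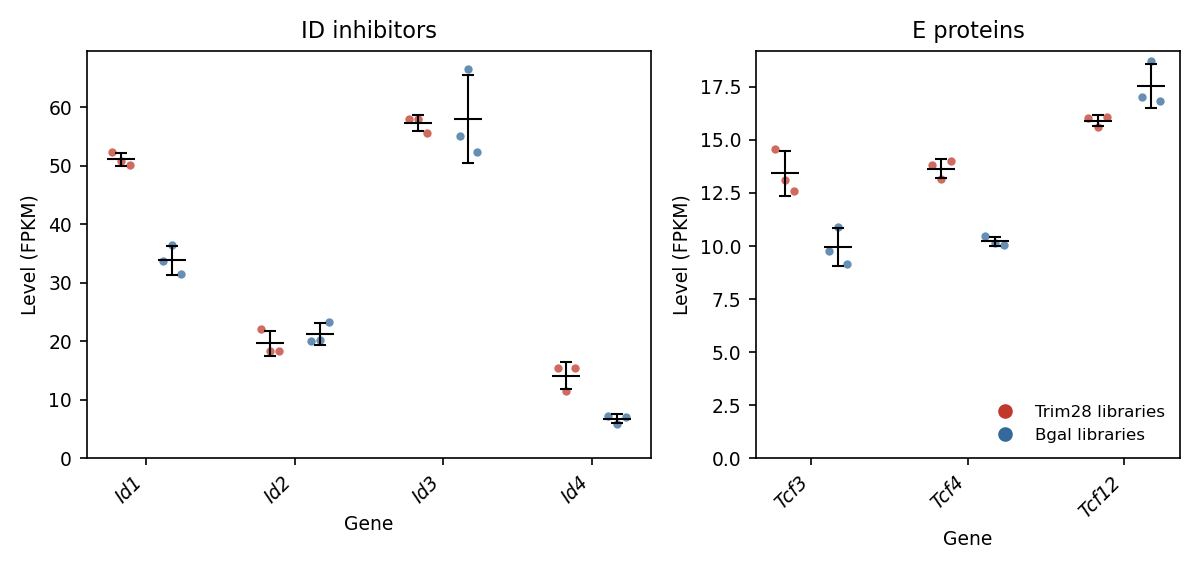
Level in FPKM of the ID inhibitor genes (left) and the E protein genes (right) in each library, with the group mean and SD as black bars (n = 3 each). Id1, Id4, Tcf3 and Tcf4 show no overlap between Trim28 (red) and Bgal (blue), while Id2 and Id3 overlap.

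The ratio of summed ID to summed E protein levels was 3.33, 3.31 and 3.27 in the Trim28 libraries, against 3.11, 3.25 and 3.17 in the Bgal libraries. Each Trim28 ratio lies above each Bgal ratio, by a narrow margin. The ratio is one of FPKM values and says nothing of protein.

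Genes of the BMP pathway, which feeds the ID genes, were mostly higher in the same libraries. Of 22 listed genes, 18 were tested, of which 13 rose, 0 fell and 5 did not pass, with a median log2 difference of 0.53. The called share was 72.2%, beside 41.2% of all tested genes, of which 20.1% rose. Nog, a secreted antagonist, is among the 13 and passed the filter mainly through the Trim28 libraries; with a filter of 1 FPKM, 12 of 17 were called. Bmp4, a BMP ligand, had 21.3, 21.9 and 19.4 FPKM in the Trim28 libraries, against 8.99, 10.5 and 8.61 FPKM in the Bgal libraries (2.23-fold, limma adjusted p = 0.000141). Bmp2, another ligand, averaged 5.097 ± 0.725 FPKM in the Trim28 and 1.41 ± 0.192 FPKM in the Bgal libraries (SD, n = 3 each), 3.61-fold higher (limma adjusted p = 0.000229).

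The inhibitors of the pathway rose along with its ligands. Smad6, an inhibitory SMAD that is itself a BMP target, averaged 15.95 ± 1.44 FPKM in the Trim28 and 8.22 ± 0.362 FPKM in the Bgal libraries (limma adjusted p = 0.000229). Grem1, a secreted BMP antagonist, averaged 20.1 ± 0.356 FPKM in the Trim28 and 8.42 ± 1.54 FPKM in the Bgal libraries (limma adjusted p = 0.000358). The receptor genes Bmpr2 and Acvr1, the shared SMAD gene Smad4, the ligand gene Bmp5 and the decoy receptor gene Bambi were the 5 that did not pass, with limma adjusted p-values from 0.128 for Acvr1 to 0.838 for Bambi. Of the markers, 8 of 11 fibroblast and 7 of 8 mural genes rose in the same libraries, and their part in this result was not tested.

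**Figure D3:**
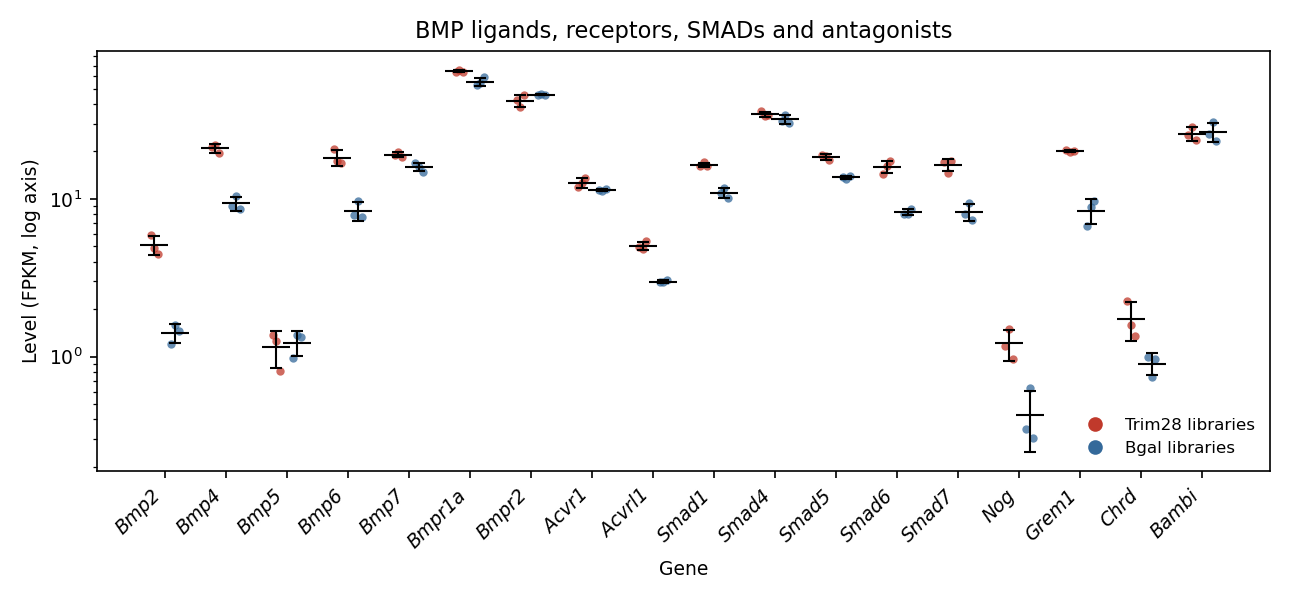
Level in FPKM (log axis) of the 18 tested genes of the BMP list in each library, with the group mean and SD as black bars (n = 3 each). Bmp2, Bmp4, Bmp6, Smad6, Smad7 and Grem1 stand higher in all Trim28 libraries (red) than in any Bgal library (blue), while Bmp5, Bmpr2, Smad4 and Bambi overlap.

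Among tissue-restricted partners of the E proteins that act in mesoderm and mesenchyme, every call was a rise. Of 14 found, 5 were tested, of which Twist1, Tcf21 and Msc rose and Twist2 and Scx did not pass. The share called was 60%, beside 41.2% of all tested genes. Twist1, a regulator of mesenchymal fate and of epithelial-mesenchymal transition, had 6.304, 5.83 and 7.25 FPKM in the Trim28 libraries, against 2.73, 2.996 and 3.54 FPKM in the Bgal libraries. The groups did not overlap and the means stood 2.09-fold apart (log2 difference 0.87, SE 0.11, limma adjusted p = 0.00096).

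Tcf21, needed for cardiac fibroblast development in mice, had 17.8, 17.8 and 18.9 FPKM in the Trim28 libraries, against 10.9, 10.4 and 11.7 FPKM in the Bgal libraries. The means were 18.2 ± 0.618 FPKM in the Trim28 and 11.02 ± 0.638 FPKM in the Bgal libraries (SD, n = 3 each), a 1.65-fold rise (log2 difference 0.67, limma adjusted p = 0.000254). Msc, the musculin gene, a repressor related to Tcf21, had 1.23, 1.37 and 1.31 FPKM in the Trim28 libraries, against 0.413, 0.731 and 0.808 FPKM in the Bgal libraries. It rose 2.002-fold by the means (limma adjusted p = 0.0197), on 21, 22 and 23 reads in the Trim28 libraries and 9, 13 and 17 reads in the Bgal libraries. Its call was lost in limma-voom on recovered reads, without Bgal replicate 1 and without Trim28 replicate 2, over a range of adjusted p from 0.0118 to 0.0638.

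Twist2, the paralog of Twist1, had 2.67, 2.26 and 2.09 FPKM in the Trim28 libraries, against 1.52, 1.98 and 2.09 FPKM in the Bgal libraries. The lowest Trim28 value lies almost on the highest Bgal value, and the difference did not pass (log2 difference 0.22, interval -0.06 to 0.51, limma adjusted p = 0.181). Scx, the scleraxis gene of tendon and valve matrix cells, had 10.1, 11.2 and 11.0 FPKM in the Trim28 libraries, against 9.64, 9.41 and 9.14 FPKM in the Bgal libraries. It missed the threshold (log2 difference 0.18, limma adjusted p = 0.0556) but passed under both rescalings of the libraries, with a lowest adjusted p of 0.0424. Scx lies within Bop1 on the opposite strand over 2019 bases in the deposited coordinates, and the counting's strand setting is not given, so its reads are uncertain.

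The summed level of the 14 mesenchyme members was 39.1 to 40.9 FPKM in the Trim28 libraries and 25.4 to 27.8 FPKM in the Bgal libraries. Of the 11 fibroblast marker genes, 8 rose in the same libraries, by 1.296-fold for Lum to 2.76-fold for Pdgfra. The other 3 did not pass, with ratios of 1.08 for Fn1, 1.17 for Postn and 1.34 for Thy1. Tcf21 and Twist1 are themselves expressed by fibroblasts. The part of fibroblast number in their rise was not tested.

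Atoh8 had the largest rise of all members on the log2 scale. It encodes an atonal-related factor and is a known BMP-responsive gene in endothelial cells. Atoh8 (ENSRNOG00000010716, chromosome 4, 100067341 to 100099517) had 11.2, 12.2 and 10.6 FPKM in the Trim28 libraries, against 5.08, 5.48 and 5.18 FPKM in the Bgal libraries. Its 3 Trim28 values are all more than any Bgal value, 2.16-fold by the means (log2 difference 0.98, SE 0.07, limma adjusted p = 0.00013), and the adjusted p stayed between 7.11e-06 and 0.00121 over the alternatives. Among endothelial markers, Eng, which other cell types also express, stood at 82.3 ± 1.33 FPKM in Trim28 and 32.95 ± 3.86 FPKM in Bgal libraries, 2.499-fold higher (limma adjusted p = 7.32e-05). Cdh5 stood at 0.319 ± 0.128 FPKM in Trim28 and 0.488 ± 0.1004 FPKM in Bgal libraries, and Tie1 at 0.359 ± 0.126 FPKM in Trim28 and 0.355 ± 0.0848 FPKM in Bgal libraries. Of the 3 endothelial markers tested, Eng and Tek rose and Kdr fell, and their part in the rise of Atoh8 was not tested.

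Of the other proneural and tissue-specific members, only Tcfl5 was tested. Tcfl5, a factor of the male germ line in mice, had 1.49, 2.05 and 1.07 FPKM in the Trim28 libraries, against 1.38, 1.34 and 1.37 FPKM in the Bgal libraries, with groups that overlap (limma adjusted p = 0.683). The remaining 24 of this class found in the table were not tested. Ascl2, which specifies intestinal stem cells and trophoblast in mice, had the highest mean level of all untested members, with 39, 15 and 40 reads in the Trim28 libraries and 6, 6 and 23 reads in the Bgal libraries. With no filter on low values it did not pass (limma adjusted p = 0.0918).

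**Figure D4:**
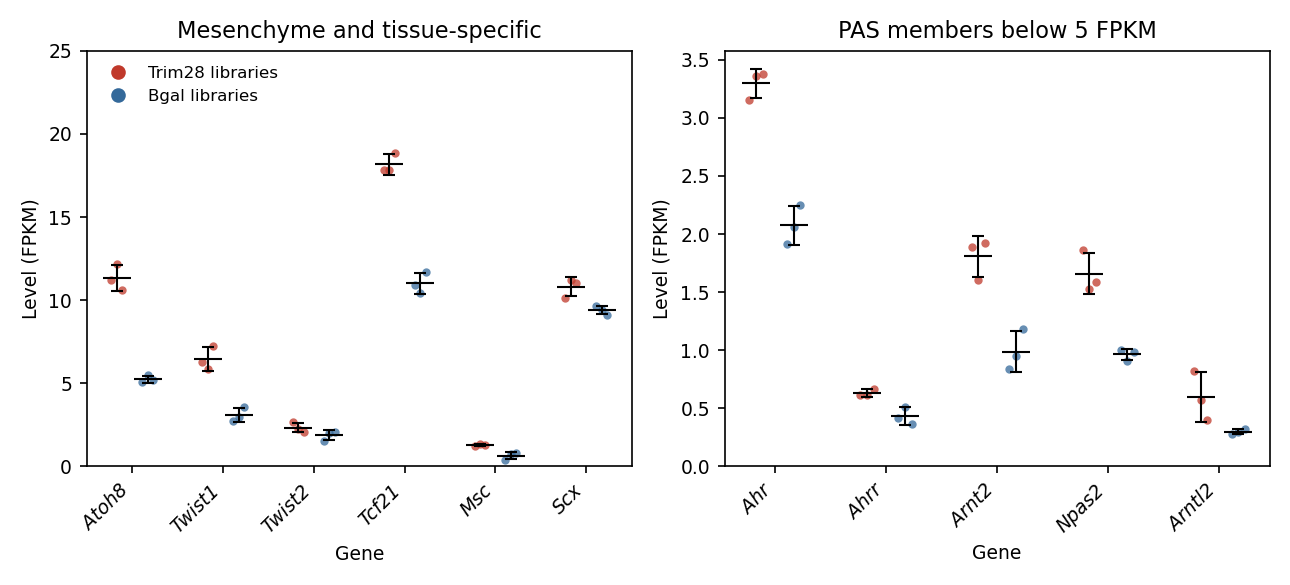
Level in FPKM of Atoh8, the 5 tested mesenchyme members (left) and 5 PAS members below 5 FPKM (right) in each library, with group mean and SD as black bars (n = 3 each). Atoh8, Twist1, Tcf21, Msc, Ahr, Arnt2 and Npas2 rose; Arntl2 lay under the level required for testing.

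Of the PAS members, which carry the bHLH mark, 3 of 5 tested rose, each far below Arnt in level, and 0 fell. That is 60% called, beside 41.2% of all tested genes. Ahr, the aryl hydrocarbon receptor, a ligand-activated sensor of planar aromatic compounds, had 3.16, 3.36 and 3.38 FPKM in the Trim28 libraries, against 1.91, 2.06 and 2.25 FPKM in the Bgal libraries. It rose 1.59-fold without overlap (log2 difference 0.48, SE 0.09, limma adjusted p = 0.00458). Arnt, the obligate partner of AHR and of the HIF subunits, had 24.98, 25.9 and 23.04 FPKM in the Trim28 libraries, against 23.01, 23.8 and 25.7 FPKM in the Bgal libraries. These overlap, with a log2 interval of -0.12 to 0.18 (limma adjusted p = 0.765).

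Arnt2, the neural paralog of Arnt, had 1.89, 1.61 and 1.93 FPKM in the Trim28 libraries, against 0.836, 0.947 and 1.18 FPKM in the Bgal libraries, and rose 1.83-fold (limma adjusted p = 0.0113). Npas2, a paralog of the circadian factor CLOCK, had 1.86, 1.53 and 1.59 FPKM in the Trim28 libraries, against 1.00, 0.911 and 0.988 FPKM in the Bgal libraries, and rose 1.72-fold (limma adjusted p = 0.0132). Neither gene's groups overlapped. Arnt2 remained far below Arnt in every library, so most ARNT-type transcript was Arnt in both groups. Ahrr, the repressor of AHR, had 0.611, 0.617 and 0.668 FPKM in the Trim28 libraries, against 0.419, 0.513 and 0.366 FPKM in the Bgal libraries, higher in each Trim28 library but not past the test (limma adjusted p = 0.213). Ahrr reached the level for testing mainly through the Trim28 libraries. With a filter of 1 FPKM it was not tested, and 3 of 4 PAS members were called.

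Arntl2, a paralog of the circadian factor BMAL1, was not tested, at 0.825, 0.572 and 0.401 FPKM in the Trim28 libraries, against 0.281, 0.293 and 0.3204 FPKM in the Bgal libraries. Hif3a, a PAS gene without the bHLH mark in the table, is no member and was not tested. It had 14, 8 and 21 reads in the Trim28 libraries, against 4, 8 and 15 reads in the Bgal libraries. Other PAS genes without the mark went both ways: Npas1 rose (limma adjusted p = 0.0175) and Ncoa1 fell (limma adjusted p = 0.0498). Ncoa2 and Ncoa3 did not pass. The calls of Npas1 and Ncoa1 were lost in some alternatives, with limma adjusted p up to 0.0524 and 0.146.

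Among target genes of AHR, Cyp1b1 and Nqo1 rose. Of 8 listed genes 7 were found and 5 tested, of which 2 rose, 0 fell and 3 did not pass (median log2 difference 0.19). The called share of 40% is near the 41.2% of all tested genes. Cyp1b1, a monooxygenase, averaged 13.2 ± 1.25 FPKM in the Trim28 and 7.79 ± 0.395 FPKM in the Bgal libraries (limma adjusted p = 0.000709), and Nqo1, a quinone reductase, averaged 16.6 ± 1.06 FPKM in the Trim28 and 12.5 ± 1.07 FPKM in the Bgal libraries (limma adjusted p = 0.00665). Tiparp, an ADP-ribosyltransferase that restrains AHR, did not pass, with 30.5 ± 1.76 FPKM in Trim28 and 34.2 ± 1.798 FPKM in Bgal libraries (limma adjusted p = 0.0655). Cyp1a1, the classical AHR target, had 0.639, 0.477 and 0.238 FPKM in the Trim28 libraries, against 0.917, 0.522 and 0.5295 FPKM in the Bgal libraries, with groups that overlap (limma adjusted p = 0.371).

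In the MYC, MAX and MLX network, Myc rose and Max, Mlx and Mxd1 fell, of 9 members tested. That called share, 44.4%, is near the 41.2% of all tested genes. Myc, an activator of growth and ribosome genes, had 6.71, 5.71 and 6.23 FPKM in the Trim28 libraries, against 3.78, 5.26 and 4.04 FPKM in the Bgal libraries. The groups did not overlap, although Bgal replicate 2 came close, and Myc rose 1.43-fold (log2 difference 0.44, SE 0.12, limma adjusted p = 0.0219). That call was lost with no filter and without Bgal replicate 1, Bgal replicate 3, Trim28 replicate 1 or Trim28 replicate 3, with adjusted p up to 0.07199. Mycn, the paralog prominent in the fetal heart of mice, had 2.88, 2.001 and 2.22 FPKM in the Trim28 libraries, against 1.83, 1.68 and 1.16 FPKM in the Bgal libraries, and did not pass (log2 difference 0.40, limma adjusted p = 0.0661), although it did in limma-voom on recovered reads (adjusted p = 0.0347).

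Mxd1, a repressor that competes with MYC for MAX, had the largest fall of all members. It had 5.71, 5.40 and 4.91 FPKM in the Trim28 libraries, against 8.84, 9.28 and 8.598 FPKM in the Bgal libraries. The highest Trim28 value is well below the lowest Bgal value, and Mxd1 was 1.67-fold lower in the Trim28 libraries (log2 difference -0.64, SE 0.08, limma adjusted p = 0.000692). Over the alternatives its adjusted p lay between 3.23e-05 and 0.00413.

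The other MAX-binding repressors did not pass. Mxd4 had 15.8, 16.3 and 17.7 FPKM in the Trim28 libraries, against 18.2, 17.9 and 18.5 FPKM in the Bgal libraries (limma adjusted p = 0.124), lower in every Trim28 library by a small margin. Mxi1 had 7.603, 8.53 and 8.65 FPKM in the Trim28 libraries, against 8.07, 8.54 and 9.11 FPKM in the Bgal libraries (limma adjusted p = 0.642), with groups that overlap. Mnt, a further MAX-binding repressor, overlapped too, at 4.76 ± 0.606 FPKM in Trim28 and 4.97 ± 0.250 FPKM in Bgal libraries (SD, n = 3 each, limma adjusted p = 0.671). The sum of Mxd1, Mxd4, Mxi1 and Mnt was 3.46, 4.52 and 4.15 times the sum of Myc, Mycn and Mycl in the Trim28 libraries, against 7.14, 5.84 and 7.72 times in the Bgal libraries. On this scale per length, repressor transcripts exceeded MYC-type transcripts in every library, and each Trim28 factor lies below each Bgal factor.

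Max, the common partner of MYC and the MXD proteins, had 21.1, 24.99 and 19.8 FPKM in the Trim28 libraries, against 25.3, 27.9 and 26.4 FPKM in the Bgal libraries. It fell (log2 difference -0.27, SE 0.09, limma adjusted p = 0.0434), but Trim28 replicate 2 came close to the lowest Bgal value. The call of Max was lost in 9 of 15 alternatives, among them both rescalings and leaving out Bgal replicate 1, 2 or 3 or Trim28 replicate 1 or 3, with adjusted p up to 0.118. The count of called members of the network, 4 of 9, was 2 without Bgal replicate 1, Bgal replicate 3, Trim28 replicate 1 or Trim28 replicate 3, and 2 with no filter.

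**Figure D5:**
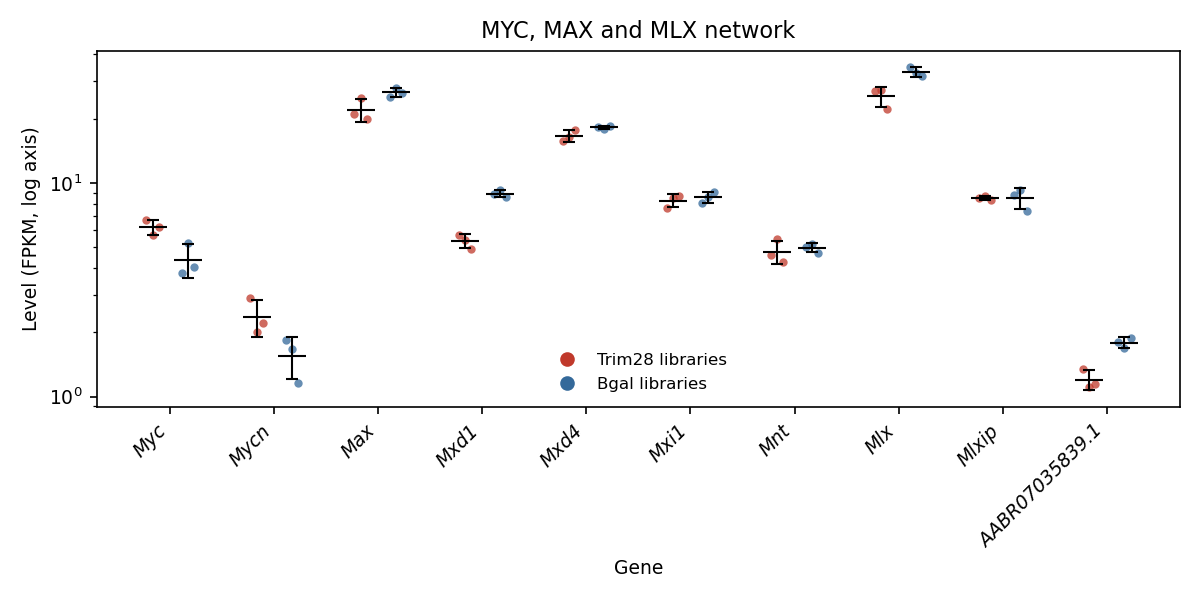
Level in FPKM (log axis) of the 9 tested members of the MYC, MAX and MLX network and of AABR07035839.1, whose deposited description is that of the Mlxipl protein, with group mean and SD as black bars (n = 3 each). Max, Mxd1, Mxd4, Mlx and AABR07035839.1 lie lower in all Trim28 libraries (red) than in any Bgal library (blue), and Myc and Mycn higher. Of these, Mxd4 and Mycn did not pass the threshold.

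On the glucose-sensing side, Mlx fell and Mlxip did not pass. Mlx, the partner of MondoA and ChREBP, had 26.98, 27.1 and 22.3 FPKM in the Trim28 libraries, against 34.9, 32.6 and 31.8 FPKM in the Bgal libraries. It was 1.30-fold lower in the Trim28 libraries, lowest in replicate 3 (log2 difference -0.37, SE 0.08, limma adjusted p = 0.0103). Mlx overlaps Psmc3ip on the opposite strand by 37 bases. Mlxip, the MondoA gene, had 8.52, 8.68 and 8.33 FPKM in the Trim28 libraries, against 8.78, 9.24 and 7.397 FPKM in the Bgal libraries, with a log2 interval of -0.19 to 0.21 (limma adjusted p = 0.934).

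AABR07035839.1 (chromosome 12, 24590645 to 24619639) is a placeholder name whose row carries the protein description of Mlxipl, which encodes ChREBP. It had 1.35, 1.104 and 1.15 FPKM in the Trim28 libraries, against 1.798, 1.68 and 1.89 FPKM in the Bgal libraries, and fell (log2 difference -0.34, limma adjusted p = 0.0297). Its call was lost in 7 of 15 alternatives, among them no filter and leaving out Bgal replicate 1, 2 or 3 or Trim28 replicate 2 or 3, with adjusted p up to 0.0891.

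Of 6 listed targets of MondoA and ChREBP, 5 were tested, and 4 fell (median log2 difference -0.61). Of these 5, 80% were called, beside 41.2% of all tested genes, of which 21.1% fell. Arrdc4, an arrestin-domain regulator of glucose uptake, had 2.32, 1.72 and 3.15 FPKM in the Trim28 libraries, against 8.61, 8.67 and 9.75 FPKM in the Bgal libraries, and was 3.77-fold lower in the Trim28 libraries (log2 difference -1.58, limma adjusted p = 0.000314). The lipid synthesis genes Acaca, Fasn and Acly, which SREBP factors also drive, were 1.69-fold, 1.39-fold and 1.18-fold lower (limma adjusted p = 0.000141, 0.000778 and 0.00602).

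Txnip, the thioredoxin-interacting protein and the best-known target of MondoA, was named after its values were seen. It had 71.4, 64.9 and 191 FPKM in the Trim28 libraries, against 153, 142 and 147 FPKM in the Bgal libraries. Trim28 libraries 1 and 2 lay far below the Bgal libraries, and Trim28 library 3 lay above them. Trim28 library 3 also had the least Trim28, and a link between these levels was not tested. Over all 6 libraries Txnip did not pass (log2 difference -0.61, interval -1.47 to 0.25, limma adjusted p = 0.223). Without Trim28 replicate 3, the library that went the other way, the log2 difference was -1.10 (limma adjusted p = 0.000193). That was the lowest adjusted p over the alternatives in limma, and the highest was 0.524.

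Of 20 tested MYC target genes of ribosome biogenesis and growth, 3 rose, 6 fell and 11 did not pass, a called share of 45% beside 41.2% of all tested genes, with a median log2 difference of -0.04. Npm1, the nucleophosmin gene, was 1.56-fold lower in the Trim28 libraries (limma adjusted p = 0.000148), and the kinase gene Cdk4 1.25-fold lower (limma adjusted p = 0.00127). Cad, of pyrimidine synthesis, was 1.499-fold higher (limma adjusted p = 0.000528), and the cyclin gene Ccnd2 1.32-fold higher (limma adjusted p = 0.000499). Proliferation markers fell in the same libraries, 5 of 6, and their part in this result was not tested.

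Of the USF, MITF and AP-4 members, leucine zipper relatives that bind CACGTG or similar sites, 5 were tested, 1 fell and 0 rose. That is 20% called, beside 41.2% of all tested genes. Usf2, a ubiquitous factor and the member with the highest mean in the Bgal libraries, had 50.2, 52.7 and 55.4 FPKM in the Trim28 libraries, against 59.6, 63.5 and 60.4 FPKM in the Bgal libraries. Every Trim28 value lies below every Bgal value, by a factor of 1.16 between the means (log2 difference -0.21, SE 0.05, limma adjusted p = 0.0146). Its call was lost without Trim28 replicate 1, with an adjusted p of 0.0551. Its partner gene Usf1 had 22.4, 24.6 and 21.1 FPKM in the Trim28 libraries, against 24.99, 23.1 and 22.6 FPKM in the Bgal libraries, which overlap (log2 interval -0.21 to 0.11, limma adjusted p = 0.581).

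Mitf, the melanocyte and lysosome regulator that is also expressed in heart, had 11.6, 11.8 and 13.5 FPKM in the Trim28 libraries, against 14.2, 12.7 and 15.2 FPKM in the Bgal libraries. The groups overlap and it did not pass (log2 difference -0.17, limma adjusted p = 0.149). Tfap4, the AP-4 gene, overlapped at 1.76 ± 0.174 FPKM in Trim28 and 1.74 ± 0.3095 FPKM in Bgal libraries. Usf3 stood at 5.15 ± 0.2695 FPKM in Trim28 and 5.24 ± 0.227 FPKM in Bgal libraries (limma adjusted p = 0.843). The row of Usf3 overlaps the coding gene Naa50 on the same strand over 36564 bases. Naa50 averaged 7.08 FPKM in the Trim28 and 6.76 FPKM in the Bgal libraries. Usf3 also overlaps AABR07034273.1 on the same strand over 3387 bases. That entry was listed at 0.0945 FPKM on average in the Trim28 and 4.86 FPKM in the Bgal libraries. Reads could have been divided among these rows. Tfec, a macrophage relative of Mitf, was below the level for testing with 13, 6 and 9 reads in the Trim28 libraries, against 4, 2 and 0 in the Bgal libraries. With no filter it passed (adjusted p = 0.0398 in limma), in libraries in which leukocyte markers rose, whose part was not tested.

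Of the Orange-domain repressors kept here, 4 were tested and 0 passed in limma at the adjusted threshold or in limma-voom on recovered reads. At an unadjusted p under 0.05 in limma there was 1, Hes6. Leaving out Bgal replicate 2 called 1, Bhlhe40. Bhlhe40, the DEC1 gene, a stress- and clock-responsive repressor, had 69.2, 65.7 and 61.4 FPKM in the Trim28 libraries, against 58.6, 62.95 and 50.6 FPKM in the Bgal libraries. The groups overlap, and Bhlhe40 was the highest of all members in the Trim28 libraries (log2 difference 0.19, interval -0.01 to 0.39, limma adjusted p = 0.111). Bhlhe41, the DEC2 gene, had 8.85, 10.1 and 9.89 FPKM in the Trim28 libraries, against 10.5, 9.08 and 10.6 FPKM in the Bgal libraries (limma adjusted p = 0.612).

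Hes6, a HES relative that antagonises HES1, averaged 11.2 ± 0.444 FPKM in the Trim28 and 13.1 ± 1.39 FPKM in the Bgal libraries (SD, n = 3 each). It was lower in each Trim28 library but did not pass (limma adjusted p = 0.0803). Hes7, the gene of the somite clock, overlapped at 1.62 ± 0.416 FPKM in Trim28 and 1.98 ± 0.549 FPKM in Bgal libraries (limma adjusted p = 0.449).

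Cofactors that bHLH proteins work with were counted from a separate list of 20 genes, of which 18 were tested, 6 rose and 2 fell (44.4%). That share is near the 41.2% of all tested genes. That count of 8 was 5 without Bgal replicate 1 or any 1 of the 3 Trim28 replicates, and 5 with no filter. Tle3, a Groucho corepressor, was 1.76-fold higher in the Trim28 libraries (limma adjusted p = 0.000681), and Lmo4, a LIM-only adaptor, 1.52-fold higher (limma adjusted p = 0.000756). Fbxw7, the ubiquitin ligase subunit that degrades MYC, rose to 12.9 ± 0.582 FPKM in the Trim28 libraries, against 8.67 ± 0.943 FPKM in the Bgal libraries (limma adjusted p = 0.00244). Ptges3, the p23 cochaperone of the AHR complex, fell to 87.3 ± 2.14 FPKM in the Trim28 libraries, against 111 ± 7.45 FPKM in the Bgal libraries (limma adjusted p = 0.002798).

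Members that define other lineages were nearly silent. The 4 skeletal muscle factors Myod1, Myf5, Myf6 and Myog summed to 0.131 to 0.241 FPKM in the Trim28 and 0.1597 to 0.252 FPKM in the Bgal libraries. The blood and endothelial factors Tal1, Tal2 and Lyl1 summed to 0.4997 to 0.871 FPKM in the Trim28 and 0.331 to 0.495 FPKM in the Bgal libraries. Lyl1 had 15, 28 and 15 reads in the Trim28 libraries and 16, 12 and 14 in the Bgal libraries. Ascl5, Ferd3l, Figla, Helt, Msgn1, Mycs, Myf5, Neurod6, Neurog1, Neurog2, Nhlh2, Olig3 and Ptf1a were the 13 listed at 0 throughout.

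The bHLH mark also stands on 2 rows that carry the names of genes that are not bHLH factors. Rab24 is named for a small GTPase, but its protein description in the deposited table is that of Mxd3, a MAX-binding repressor. In RefSeq, Mxd3 and Rab24 stand with 1 coding gene between them, and the deposited row spans Prelid1 on the opposite strand over 3062 bases. Rab24 had 5.43, 5.63 and 6.41 FPKM in the Trim28 libraries, against 7.14, 7.196 and 5.97 FPKM in the Bgal libraries (limma adjusted p = 0.165). Tmem9b is named for a transmembrane protein, next to the bHLH gene Ascl3 in RefSeq with 0 coding genes between, and had 9.97, 11.2 and 10.6 FPKM in the Trim28 libraries, against 10.5, 10.01 and 9.47 FPKM in the Bgal libraries (limma adjusted p = 0.417). Neither passed, and which of the neighbouring genes gave the reads cannot be told apart.

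Ranked by mean level in the Trim28 libraries, Bhlhe40 led at 65.4 ± 3.89 FPKM, followed by Id3 at 57.3 ± 1.36, Usf2 at 52.8 ± 2.63 and Id1 at 51.1 ± 1.14 FPKM (SD, n = 3). In the Bgal libraries Usf2, Id3 and Bhlhe40 led at 61.2 ± 2.08, 58.1 ± 7.55 and 57.4 ± 6.29 FPKM, whose SDs overlap, and Id1 came next at 33.9 ± 2.48 FPKM. Usf2 and Id1 lay within their SDs of each other in the Trim28 libraries and far apart in the Bgal libraries.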

How the data were processed

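Poly(A) RNA of 3 Trim28 and 3 Bgal libraries was sequenced in pairs with dUTP strand marking, per the labels' protocols. The deposited table holds FPKM for 34510 genes, made by the authors with 1 column per library, per the file headers, and 0 columns of other samples. HISAT2 2.0.5 and DESeq2 are named in the submitters' processing notes; for the counting tool, strand setting and genome build, the sources used here give no name. Multiplied by gene length, 100% of values came out as whole reads (tolerance 0.01), and these are the reads printed per gene. The 14808 genes that reached 0.5 FPKM in 3 or more libraries were compared on log2(FPKM + 1) in limma 3.58.1 (R 4.3.3) with an intensity trend, two-sided, with Benjamini-Hochberg adjustment and a threshold of 0.05. Fold changes on that scale understate changes of low genes; folds in the text are ratios of mean FPKM.

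The members, lists of pathway and marker genes and the rule for named genes were chosen with earlier results of these data known. The rule took up to 10 rises and 10 falls among called members reaching 1 FPKM in the higher group, 24 fixed genes, and up to 4 genes of each pathway list by p-value. Other genes named with values, such as Txnip, Cyp1a1, Scx, Tfec, Rab24 and the cell type markers, were picked with their values known. The fit was tested on simulated reads. Within a group, chi-square per gene between libraries was 6.77 to 18.1, above sampling noise, and each library counted as 1 replicate. Alternatives were pseudocounts of 0.1 and 0.5, no filter, a filter of 1 FPKM, 2 rescalings, no trend, limma-voom on recovered reads, the replicate block and leaving out each library. Overlaps of rows were read from the deposited coordinates, and promoters and gene neighbours from RefSeq GRCr8.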

Additional observations from a re-analysis of the deposited data

How the results depend on the processing

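Of the 17 members called, 12 kept the call in all 15 alternatives that tested them, and Max, Myc, Msc, Usf2 and AABR07035839.1 lost it in 1 or more. Another 3 members, Bhlhe40, Mycn and Scx, were called in 1 or more alternatives only, and Tfec, untested otherwise, was called with no filter. No member or listed gene changed direction where the main fit or the alternative passed the threshold. Some that passed in neither did change sign, such as Id3 and Mnt without Trim28 replicate 3. With no filter on low values, 76 members were tested, 15 were called (12 rose and 3 fell) and the share called was 19.7%, beside 23.4% of all genes; more low genes then enter the test. The same setting gave 2 called genes for the MYC, MAX and MLX network, 2 for the MITF, USF and AP-4 members and 5 for the protein partners. Leaving out 1 library at a time gave 13 to 16 called members, 10 to 13 that rose, 3 to 4 that fell and a share of 32.5% to 40.0%, beside 32.3% to 38.1% of all genes. It gave 2 to 4 for the MYC network, 0 to 1 for the MITF, USF and AP-4 members, 0 to 1 for the Orange repressors, 5 to 9 for the protein partners and 0 to 1 for the Schwann cell and neuron markers. The cause was not tested. Correlations of deviations between same-numbered libraries were -0.0164, 0.134 and 0.00915. Between libraries with different numbers they ran from -0.0899 to 0.0839. With 3 libraries per group, these values cannot show whether the replicate numbers shared by the titles pair the samples. With the replicate block 17 members were called, 13 higher and 4 lower, and 1 Orange repressor in place of 0. Members with few reads, such as Msc with 9 to 23 and Tfec with 0 to 13 per library, are limited by depth.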
